A study of Mus musculus with 12 samples.

Results

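The phosphatidylcholine transfer protein PC-TP (gene Pctp, also StarD2), 6 of its START-domain relatives (Stard3, Stard4, Stard5, Stard7, Stard10 and Stard13) and Them2 (Acot13) were followed in the livers of male mice. The 8 genes were taken by name from the 35275 genes of the deposited table, by a rule that uses no measured value but was set with earlier results of these data known, and all 8 passed the filter on low values that left 12466 genes for testing. Liver RNA was sequenced from 12 mice, 3 in each of 4 groups: WT mice on the chow diet, WT mice on the MCD diet, Pctp-/- mice on the chow diet and Pctp-/- mice on the MCD diet. The MCD diet lacks methionine and choline, and the Pctp-/- mice carry the deletion in the whole body, not in hepatocytes alone. No other allele or agent is named for these mice, and their age, strain and time on the diet are not given in the sources used here.

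START domains are folds of a conserved shape with an inner cavity that holds a single lipid molecule, and the proteins that carry them move lipids between membranes or sense them. PC-TP is little more than a START domain and is specific for phosphatidylcholine. Them2 has no START domain: it is an acyl-CoA thioesterase of mitochondria and cytosol that binds PC-TP. In the liver the pair has been studied for its part in fatty acid and glucose metabolism, and phosphatidylcholine, whose synthesis needs choline or methyl groups from methionine, is also secreted into bile and with lipoproteins.

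Values are FPKM, fragments per kilobase of transcript corrected for how many fragments the library mapped, so levels of different genes can be set side by side. Log2 fold changes are differences of mean log2(FPKM + 1), which understates changes of genes near or below 1 FPKM. A gene is said to have risen or fallen where limma gave a Benjamini-Hochberg adjusted p under 0.05 over all 12466 genes. Uniquely mapped reads numbered 30486576 to 55179468 per library on chow and 33463498 to 46246856 on MCD. Between 77.6 and 79.4% of reads mapped uniquely in the chow libraries and between 85.7 and 87.5% in the MCD libraries, and the read error rate was 0.03% in the first and 0.01% in the second. No label names a run or a batch, but these measures did not overlap between the diets. An effect of diet and an effect of how the libraries were made or sequenced cannot be told apart, whereas the genotypes were compared within a diet. In whole liver, fewer cells of a type and less RNA per cell cannot be told apart either. Median-of-ratios scaling between libraries moved the median log2 fold change of all genes on the MCD diet in WT mice from 0.11 to 0.01, so that small rises with MCD in WT mice lie close to the shift of the whole table.

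The genes spanned a wide range of levels. In WT mice on chow, Stard10 led with a mean of 869.8 FPKM. It was followed by Stard5 at 50.5, Stard7 at 45.8, Acot13 at 40.0 and Stard4 at 31.8, and then by Stard3 at 14.3, Stard13 at 7.11 and Pctp at 2.04. The ranges of Stard5 and Stard7 overlapped, as did those of Stard7 and Acot13, and those neighbours cannot be ranked beyond their spread. Stard10 did not overlap with any other gene and stood at rank 71 of the genes tested by its mean over the 12 libraries, above 99.4% of them. Pctp stood at rank 9393, above 24.7%.

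**Figure D1:**
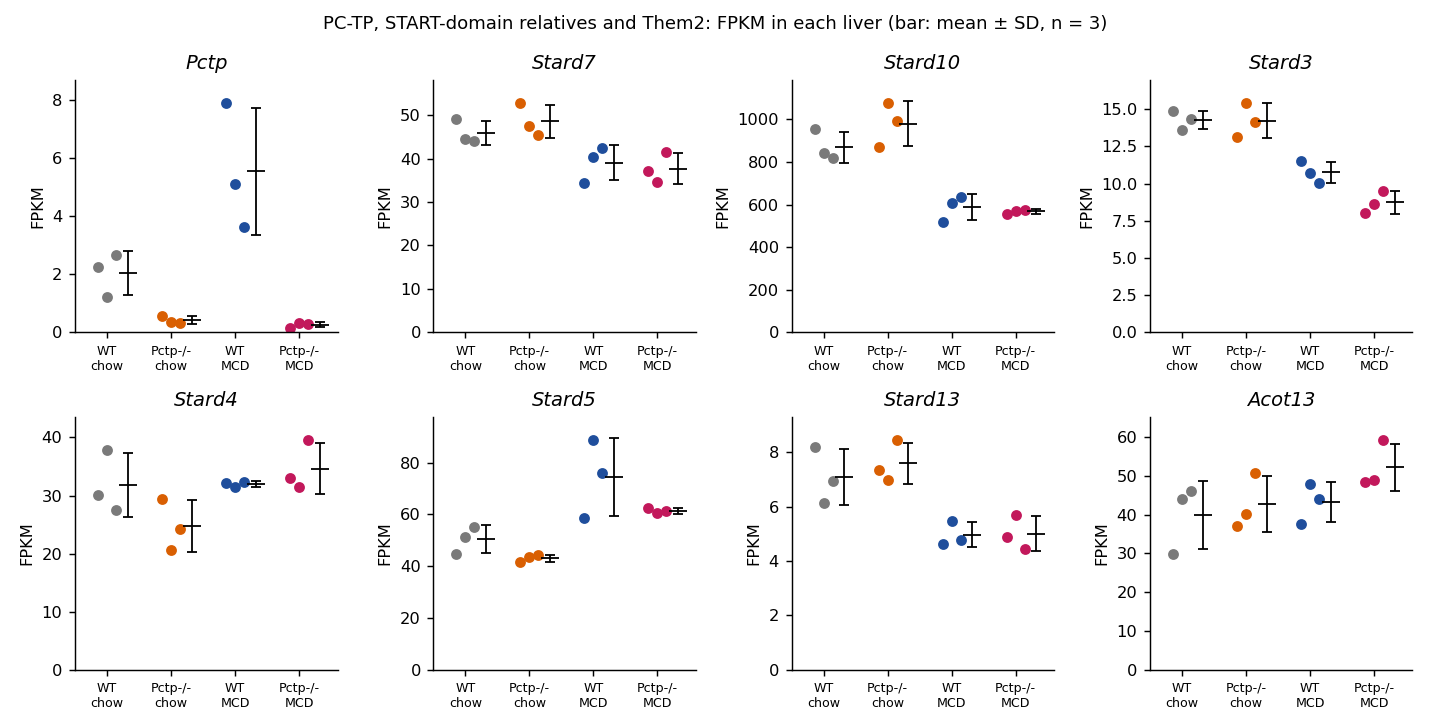
FPKM of each gene (vertical axes, each starting at 0) in each of the 12 livers, by genotype and diet, with 1 point per mouse and the bar giving the mean ± SD of 3 mice. Pctp is between 0.156 and 0.566 in all 6 Pctp-/- livers and reaches 7.90 in a WT liver on MCD, while Stard10 and Stard3 are lower in every MCD liver than in every chow liver.

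Pctp (ENSMUSG00000020553; GRCm38 chromosome 11, 89982665 to 90002894, minus strand) was the gene deleted and was read first. In WT mice on chow its FPKM was 2.25, 1.21 and 2.65, a mean of 2.04 ± 0.746 (SD, n = 3). The Pctp-/- livers on chow had 0.566, 0.364 and 0.330, a mean of 0.420 ± 0.127 (SD, n = 3). The groups did not overlap, and the Pctp-/- mean was 0.206 of the WT mean. On MCD the WT livers had 7.90, 5.10 and 3.61 FPKM, a mean of 5.54 ± 2.18 (SD, n = 3). The Pctp-/- livers on MCD had 0.156, 0.329 and 0.2925, a mean of 0.259 ± 0.0909 (SD, n = 3). With the knockout on MCD the mean fell by 95.3%. All 6 Pctp-/- livers were therefore below all 6 WT livers, as the labels have it. The log2 fold change for the knockout was -2.33 on MCD (SE 0.23, limma adjusted p = 6.24e-04). On chow it was -1.07 (SE 0.23), with an unadjusted p of 4.92e-04 and an adjusted p of 0.15, which missed the threshold over all genes. With a pseudocount of 0.1 in place of 1 the same differences were -3.93 on MCD (adjusted p = 3.13e-04) and -1.998 on chow (adjusted p = 0.0605). The adjusted p on chow ranged from 0.0605 to 0.417 over all alternatives tried. The FPKM left in Pctp-/- mice is a value for the whole gene, and which exons it came from cannot be read from the table.

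The Pctp transcript rose with MCD in WT mice, where the mean was 2.72 times that on chow and the lowest MCD liver, at 3.61 FPKM, lay above the highest chow liver, at 2.65 (log2 fold change 1.08, 95% interval 0.59 to 1.58, limma adjusted p = 0.00152). Without WT replicate 1 on MCD, the liver with the highest value, the log2 fold change was 0.84 (adjusted p = 0.00547). In Pctp-/- mice the MCD mean was 0.617 of the chow mean, a log2 fold change of -0.17 with an interval from -0.67 to 0.32 (adjusted p = 0.552). Both of these means of the deleted gene were under the minimum mean of 0.5 FPKM for testing, and no direction of diet is read from them. The 2 diet differences themselves differed by -1.26 (interval -1.96 to -0.56, limma unadjusted p = 0.00201, adjusted p = 0.132), which missed the threshold. With the gene deleted in Pctp-/- mice, a rise in WT mice alone sets the sign of that value. It is not read as a difference in response to diet. Among 16 genes, the START family and Them2, Pctp had the 13th highest mean in WT mice on chow, overlapping with Stard8 and Acot11. In WT mice on MCD it had the 10th, overlapping with Dlc1, Stard13 and Acot11.

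The 250 bases before the start of Pctp are printed because this gene rose with MCD in WT mice, and those of Stard10 and Stard3 are given further on because both fell. They come from RefSeq (GRCm38.p6), whose promoter table held 6 of the 8 genes. Capitals mark matches on either strand to 5 short motifs, namely the GC box (GGGCGG), the CCAAT box (spelled as its name), the TATA box (TATAAA), the palindromic E-box (CACGTG) and the nuclear receptor half-site (AGGTCA), none of which overlap in these promoters. Of 32851 promoters of this length in the table, 32.7% held the GC box, 33.8% the CCAAT box, 12.4% the TATA box, 6.02% the E-box and 14% the half-site. The Pctp promoter, chr11:90002895-90003144 read on the minus strand, held 3 GC boxes and 1 CCAAT box, the nearest of these 17 bases before the start, and none of the other motifs.
Pctp: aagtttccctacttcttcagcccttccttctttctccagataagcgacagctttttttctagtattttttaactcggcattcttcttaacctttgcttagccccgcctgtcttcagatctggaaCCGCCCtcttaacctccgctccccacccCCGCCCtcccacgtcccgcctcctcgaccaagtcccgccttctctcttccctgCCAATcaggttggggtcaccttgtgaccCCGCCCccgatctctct
A match is a run of letters and not a site shown to be bound.

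Of the phospholipid carriers closest to PC-TP, Stard10, which binds phosphatidylcholine and phosphatidylethanolamine, fell with MCD in both genotypes. It lies on chromosome 7 (ENSMUSG00000030688; 101317086 to 101346626, plus strand). In WT mice it measured 953, 840 and 816 FPKM on chow and 517, 609 and 635 on MCD. The Pctp-/- livers had 868, 1078 and 990 on chow and 557, 569 and 577 on MCD. Every MCD liver was below every chow liver. The mean fell by 32.5% in WT mice (log2 fold change -0.57, SE 0.11, limma adjusted p = 8.43e-04) and by 42% in Pctp-/- mice (-0.78, SE 0.11, adjusted p = 1.11e-04). With quantile normalization these were -0.34 and -0.49 and still passed. The difference between these was -0.21 (interval -0.55 to 0.12, adjusted p = 0.551). The knockout itself left differences of 0.17 on chow (interval -0.07 to 0.41, adjusted p = 0.852) and -0.04 on MCD (interval -0.28 to 0.19, adjusted p = 0.879), and the groups overlapped on each diet.

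The Stard10 promoter, chr7:101316836-101317085 on the plus strand, held none of the 5 motifs, and its GC content was 54.4% against 54.8% for Pctp. It is therefore printed without capitals.
Stard10: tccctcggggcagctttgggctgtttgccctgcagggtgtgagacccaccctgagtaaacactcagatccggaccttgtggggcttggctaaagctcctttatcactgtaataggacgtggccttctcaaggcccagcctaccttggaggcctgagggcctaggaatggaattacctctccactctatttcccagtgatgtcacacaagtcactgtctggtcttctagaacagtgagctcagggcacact

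Stard7, a phosphatidylcholine carrier directed to mitochondria, moved by less (ENSMUSG00000027367; chromosome 2, 127270218 to 127298932, plus strand). In WT mice it measured 49.0, 44.5 and 44.0 FPKM on chow and 34.5, 40.3 and 42.3 on MCD. Among Pctp-/- livers it measured 52.9, 47.5 and 45.4 on chow and 37.15, 34.5 and 41.45 on MCD. The diet groups did not overlap in either genotype. Stard7 fell in Pctp-/- mice, where the mean fell by 22.4% (log2 fold change -0.36, SE 0.10, limma adjusted p = 0.013), although without Pctp-/- replicate 2 on MCD the adjusted p was 0.0564. In WT mice the MCD mean was 0.852 of the chow mean, which missed the threshold (log2 fold change -0.23, interval -0.46 to -0.0021, adjusted p = 0.0788). With median-of-ratios scaling it passed, at -0.36 (adjusted p = 0.021), and with quantile normalization it passed at -0.31 (adjusted p = 0.0247). Between genotypes the diet differences differed by -0.13 (interval -0.45 to 0.19, limma adjusted p = 0.715). The knockout differences were 0.08 on chow (interval -0.15 to 0.31) and -0.05 on MCD (interval -0.28 to 0.18), and the latter changed sign under both scalings.

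Of the sterol carriers, Stard3 (also MLN64), a cholesterol-binding protein of late endosomal membranes, fell with MCD in both genotypes. It measured 14.8, 13.6 and 14.3 FPKM in WT mice on chow and 11.5, 10.7 and 10.05 on MCD. The Pctp-/- livers had 13.15, 15.4 and 14.1 on chow and 8.04, 8.63 and 9.515 on MCD. Every MCD liver was below every chow liver, and on MCD every Pctp-/- liver was below every WT liver. The mean fell by 24.7% in WT mice (log2 fold change -0.38, SE 0.10, limma adjusted p = 0.00474) and by 38.7% in Pctp-/- mice (-0.65, SE 0.10, adjusted p = 1.58e-04). The difference between these was -0.27 (interval -0.56 to 0.03, adjusted p = 0.372). The knockout difference on MCD was -0.27 (interval -0.48 to -0.07, unadjusted p = 0.0141), and with an adjusted p of 0.184 it missed the threshold. Over the alternatives it ran from -0.33 to -0.16, with limma adjusted p from 0.142 to 0.46. The median of all genes for the knockout on MCD was -0.093, and -0.0068 with median-of-ratios scaling. On chow the knockout difference of Stard3 was close to 0, at -0.005 (interval -0.21 to 0.20).

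Stard3 (ENSMUSG00000018167) lies on the chromosome that carries the deletion, at 98358368 to 98381112 on the plus strand and 8.36 Mb from Pctp. Of the 187 other genes tested within 10 Mb of Pctp, 3 (1.6%) passed the test for the knockout on chow, against 0.136% of all genes, and 4 (2.14%) on MCD, against 0.818%. Stard3 was not among them. The Stard3 promoter, chr11:98358118-98358367 on the plus strand, held 4 GC boxes and 1 CCAAT box and no other motif.
Stard3: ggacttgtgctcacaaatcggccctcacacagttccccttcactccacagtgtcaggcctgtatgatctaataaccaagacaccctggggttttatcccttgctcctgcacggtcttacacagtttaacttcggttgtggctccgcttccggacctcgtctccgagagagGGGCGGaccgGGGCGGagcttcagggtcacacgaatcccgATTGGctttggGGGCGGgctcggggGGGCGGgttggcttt

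Stard5, a soluble carrier known to bind cholesterol and bile acids, rose with MCD in both genotypes (ENSMUSG00000046027; chromosome 7, 83631959 to 83653127, plus strand). In WT mice it measured 44.9, 51.3 and 55.3 FPKM on chow and 58.65, 88.7 and 75.95 on MCD. Values in Pctp-/- livers were 41.6, 43.4 and 44.3 on chow and 62.55, 60.3 and 61.3 on MCD. The diet groups did not overlap in either genotype. The mean was 47.5% higher in WT mice (log2 fold change 0.54, SE 0.13, limma adjusted p = 0.00379) and 42.5% higher in Pctp-/- mice (0.50, SE 0.13, adjusted p = 0.0067), a difference of -0.03 between them (interval -0.43 to 0.36). On chow, all 3 Pctp-/- livers were below all 3 WT livers, yet the difference of -0.22 (interval -0.50 to 0.06) had an adjusted p of 0.815. On MCD the groups overlapped, with a difference of -0.25 (interval -0.54 to 0.03, adjusted p = 0.358). Exons of Stard5 overlap with those of Il16 on the other strand, which averaged 0.4365 FPKM. Whether the counting used strand is not given in the sources used here.

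Stard4 is a soluble cholesterol carrier whose gene is known to be switched on by SREBP2, the factor that raises cholesterol synthesis when sterols are scarce. In WT mice it measured 30.1, 37.9 and 27.4 FPKM on chow and 32.2, 31.5 and 32.4 on MCD, and the groups overlapped (log2 fold change 0.02, interval -0.29 to 0.33, limma adjusted p = 0.904). In Pctp-/- mice it measured 29.4, 20.5 and 24.3 on chow and 33.0, 31.4 and 39.6 on MCD, without overlap. The mean was 40.2% higher on MCD in Pctp-/- mice (0.48, SE 0.14, adjusted p = 0.0149). That call rested on single livers: the adjusted p was 0.0711 without Pctp-/- replicate 2 on chow and 0.067 without Pctp-/- replicate 3 on MCD. The diet differences differed between genotypes by 0.46 (interval 0.02 to 0.90, unadjusted p = 0.0437, adjusted p = 0.312). For the knockout, the difference on chow was -0.35 (interval -0.66 to -0.04, unadjusted p = 0.0299, adjusted p = 0.646) and that on MCD 0.10 (interval -0.21 to 0.42). Stard4 (ENSMUSG00000024378) lies on chromosome 18 from 33199355 to 33213862.

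Stard13 (also DLC2), a multidomain protein with a START domain at its end, fell with MCD in both genotypes (ENSMUSG00000016128; chromosome 5, 151037510 to 151233836, minus strand). In WT mice it measured 8.205, 6.15 and 6.96 FPKM on chow and 4.63, 5.49 and 4.79 on MCD. Those of Pctp-/- livers were 7.36, 6.97 and 8.46 on chow and 4.87, 5.71 and 4.43 on MCD. Again every MCD liver was below every chow liver. The mean fell by 30.1% in WT mice (log2 fold change -0.44, SE 0.12, limma adjusted p = 0.0097) and by 34.1% in Pctp-/- mice (-0.52, SE 0.12, adjusted p = 0.00416), with a difference between them of -0.08 (interval -0.46 to 0.30). The knockout differences were 0.09 on chow (interval -0.18 to 0.36) and 0.01 on MCD (interval -0.26 to 0.28).

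Them2 (Acot13) passed no test (ENSMUSG00000006717; chromosome 13, 24817948 to 24831540, minus strand). It measured 29.9, 43.9 and 46.1 FPKM in WT mice on chow and 37.6, 47.8 and 44.1 on MCD. Its values in Pctp-/- livers were 37.2, 40.2 and 50.8 on chow and 48.5, 49.0 and 59.2 on MCD. On MCD, all 3 Pctp-/- livers were above all 3 WT livers, by 20.9% of the mean, but the log2 fold change of 0.27 (interval -0.10 to 0.64) had a limma adjusted p of 0.459. On chow the knockout difference was 0.11 (interval -0.26 to 0.47). The diet differences were 0.13 in WT mice (interval -0.24 to 0.49, adjusted p = 0.545) and 0.29 in Pctp-/- mice (interval -0.08 to 0.66, adjusted p = 0.171), and they differed by 0.16 (interval -0.36 to 0.68). The upper ends of these intervals ran from 0.47 to 0.68, so that a rise of that size lies within them.

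Acot13 lay between 29.9 and 59.2 FPKM over the 12 livers and Pctp between 0.156 and 7.90, and the ratio of the pair spanned a wide range. Acot13 FPKM divided by Pctp FPKM was 22.4 ± 12.3 (SD, n = 3) on chow and 8.79 ± 3.77 (SD, n = 3) on MCD among WT mice, and no library of the first group (13.3 to 36.4) overlapped with the second (4.76 to 12.2). Among Pctp-/- mice, whose Pctp values were all below 1 FPKM, the ratio ran from 65.7 to 154 with chow and from 149 to 310.2 with MCD.

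Over the 8 genes, the knockout was called in 0 on chow, where 0.136% of all genes tested were called, and in 1 on MCD, Pctp itself, against 0.818%. Limma gave an unadjusted p under 0.05 for 2 of the 8 on chow, Pctp and Stard4, and for 2 on MCD, Pctp and Stard3. Over all 12466 genes it did so for 870 on chow and 2026 on MCD. The genotype groups did not overlap for 2 of the 8 on chow, Pctp and Stard5 (background 10.6%). They did not overlap for 3 on MCD, Pctp, Stard3 and Acot13 (background 26.6%). Pctp, the gene deleted, is by design in each of these knockout counts except that of calls on chow, where it missed the threshold. With MCD in WT mice 5 of 8 were called, 2 higher and 3 lower, where the background was 57% called, 34.5% higher and 22.5% lower. That split of all genes, 4300 higher and 2810 lower, was 3609 and 3498 with median-of-ratios scaling. With MCD in Pctp-/- mice 6 of 8 were called, 2 higher and 4 lower, against 50.3%, of which 26% were higher and 24.4% lower. The median log2 fold change of the 8 with MCD was -0.10 in WT mice and -0.27 in Pctp-/- mice, against 0.11 and 0.04 for all genes tested. No gene of the 8 was called for a difference of the diet effects between genotypes, where 0.0963% of all genes were called. There limma gave 2 of the 8, Pctp and Stard4, an unadjusted p under 0.05, against 1884 of all 12466 genes. Pctp is in that count because it rose in WT mice and is deleted in Pctp-/- mice. With a minimum absolute log2 fold change of 0.5 beside the adjusted p, 3 of the 8 were called in WT mice, Pctp, Stard5 and Stard10, where 41.2% of all genes were. In Pctp-/- mice 4 were called, Stard3, Stard5, Stard10 and Stard13, where 35.3% of all genes were. With 8 genes, 1 gene more or less moves a share by 12.5 percentage points.

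**Figure D2:**
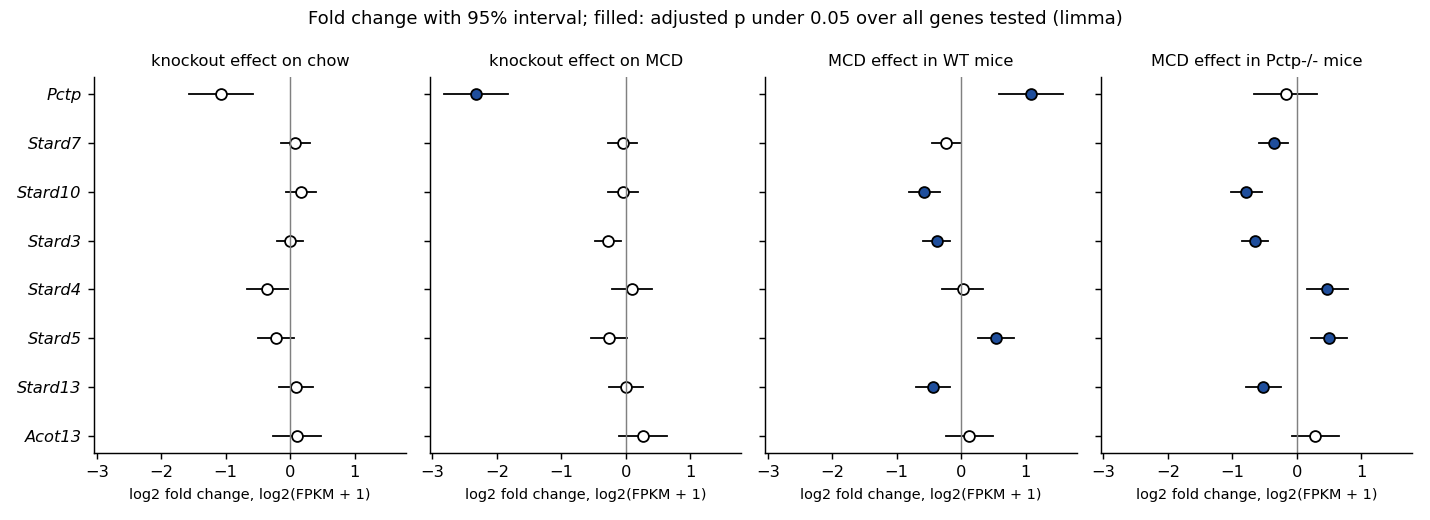
Log2 fold change of log2(FPKM + 1) for each gene (points) with its 95% interval (lines), for the knockout on each diet and for MCD in each genotype, from the fit of all 12 livers, with filled points where the limma adjusted p over all genes is under 0.05. Stard10, Stard3 and Stard13 lie left of 0 and Stard5 right of 0 in both diet panels, while Pctp is called for the knockout on MCD (-2.33) and for MCD in WT mice (1.08).

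The START family as a whole was then summed over its 15 genes, that is the 7 above without Acot13 and the 8 others. On chow the summed FPKM of WT livers was 1081 ± 75.4 (SD, n = 3) and that of Pctp-/- livers 1175 ± 97.2 (SD, n = 3). On MCD the sums were 819 ± 75.3 (SD, n = 3) for WT and 777 ± 15.1 (SD, n = 3) for Pctp-/- livers. The lowest chow liver, at 1028, lay above the highest MCD liver, at 869. Stard10 alone gave 80.4% of the sum in WT mice on chow, 83.2% in Pctp-/- mice on chow, 71.6% in WT mice on MCD and 73.0% in Pctp-/- mice on MCD. Without Stard10 the sums were 211, 195.8, 232.4 and 209.5 in the same order, so that the lower sum on MCD was carried by Stard10. Pctp gave 0.189% of the sum in WT mice on chow and 0.696% in WT mice on MCD.

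**Figure D3:**
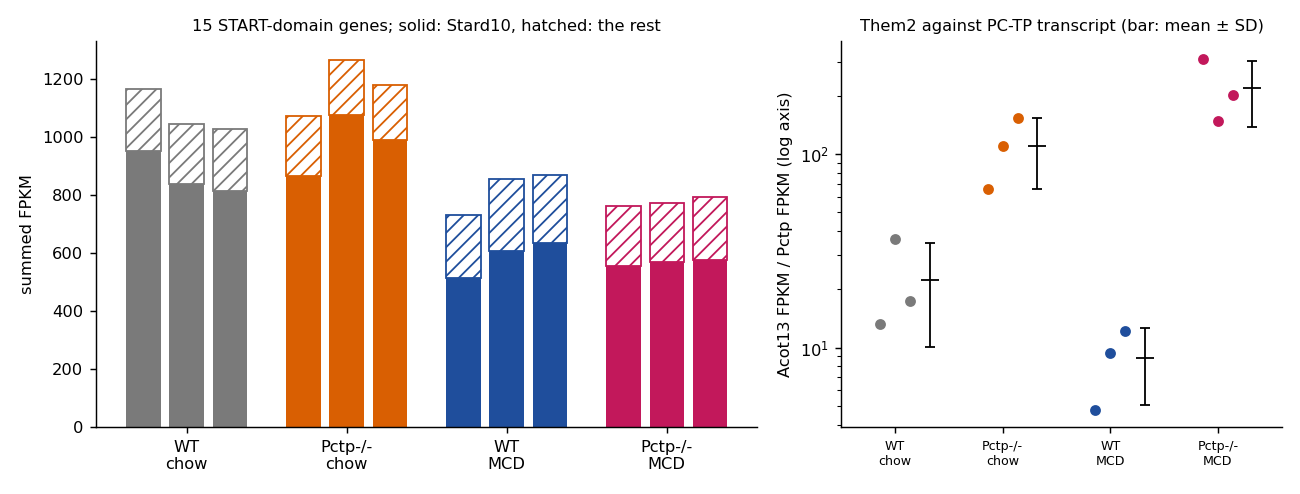
Left, summed FPKM of the 15 START-domain genes in each liver, with Stard10 as the solid part of each bar and the other 14 genes as the hatched part, and right, Acot13 FPKM divided by Pctp FPKM on a log axis with 1 point per liver and the mean ± SD of 3. The solid part shrinks from 816 FPKM or more on chow to 635 or less on MCD, and the ratio is lowest in WT mice on MCD (4.76 to 12.2).

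Of the other 8 START-domain genes, 5 were tested and the remaining 3, Star, Stard6 and Stard9, averaged under 0.5 FPKM. Star, which brings cholesterol into mitochondria of steroid-making cells, had group means of 0.457 to 0.552 FPKM, and the kinesin-like Stard9 0.319 to 0.438. Stard6 had group means of 0.0265 to 0.507, with 0 in 1 liver. It lay between 0 and 0.0999 in the chow livers and between 0.391 and 0.598 in the MCD livers, without overlap. At these low values its diet difference was not tested. Exons of Stard6 overlap with those of 4930503L19Rik on the other strand, which averaged 1.165 FPKM. The thioesterase Acot11 (also Them1) rose with MCD in both genotypes. It measured 1.95, 1.79 and 2.46 FPKM in WT mice on chow and 5.63, 3.29 and 2.95 on MCD (log2 fold change 0.66, SE 0.18, limma adjusted p = 0.00882). Without WT replicate 1 on MCD that fold change was 0.43 and still passed. The Pctp-/- livers had 2.47, 1.635 and 1.76 on chow and 3.46, 3.24 and 3.93 on MCD (0.63, SE 0.18, adjusted p = 0.0133). The latter call was lost without Pctp-/- replicate 2 on chow (adjusted p = 0.0524), and also without Pctp-/- replicate 3 on MCD, where the adjusted p stood at the threshold. Stard8 (also DLC3), a multidomain relative of Stard13, fell in WT mice on MCD (-0.38, SE 0.12, adjusted p = 0.0167), a call lost without WT replicate 3 on chow (adjusted p = 0.0547) or WT replicate 2 on MCD (0.0632). Its difference in Pctp-/- mice was -0.05 (interval -0.31 to 0.20), and the difference of the 2 had an adjusted p of 0.386. The thioesterase Acot12 had log2 fold changes of 0.18 and 0.15 with MCD in WT and Pctp-/- mice, the ceramide carrier Col4a3bp (CERT) 0.25 and 0.07, and Dlc1, another relative of Stard13, -0.33 and -0.24, none of which passed. None of the 5 passed for the knockout on either diet, nor had any an unadjusted p under 0.05 there by limma.

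Of 34 lipid carriers without a START domain, 33 were tested. With MCD, 18 (54.5%) were called in WT mice, 14 higher and 4 lower, where 57% of all genes were. In Pctp-/- mice 17 (51.5%) were called, 14 higher and 3 lower, where 50.3% of all genes were. The medians were 0.15 and 0.22 on the log2 scale. Gltpd2, of the glycolipid transfer protein family, fell by 1.80 in WT mice (adjusted p = 9.42e-07) and by 1.87 in Pctp-/- mice (8.45e-07). The peroxisomal sterol carrier Scp2 fell by 0.89 and 0.93. The fatty acid binding protein Fabp7 rose by 2.50 in WT mice and 1.83 in Pctp-/- mice, Fabp2 by 1.84 and 1.67, and the oxysterol-binding protein relative Osbpl3 by 1.59 and 2.11 in the same order. For the knockout, limma called 0 of the 33 on chow and 0 on MCD, and its unadjusted p was under 0.05 for 4 genes each time. Over all 12466 genes it was under 0.05 for 870 on chow and 2026 on MCD.

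Genes for phosphatidylcholine synthesis, which makes the lipid that PC-TP carries, were called with MCD in 6 of 9 tested (66.7%) in each genotype. Of these 5 were higher and 1 lower in WT mice, and 4 were higher and 2 lower in Pctp-/- mice. Of all genes 57% were called in WT and 50.3% in Pctp-/- mice. Bhmt, which remakes methionine from homocysteine with betaine, rose by 1.41 in WT mice (adjusted p = 4.57e-06) and 1.43 in Pctp-/- mice (5.58e-06). The last enzymes of the choline pathway went apart: Cept1 rose by 0.74 in WT and 0.59 in Pctp-/- mice, while Chpt1 fell by 0.57 and 0.50, the latter with an adjusted p of 0.0541 without Pctp-/- replicate 1 on MCD. Choline kinase alpha (Chka) fell by 0.80 in Pctp-/- mice with an adjusted p of 0.0475, which was over 0.05 in 11 of its alternatives, and the value was -0.495 without Pctp-/- replicate 3 on MCD. None was called for the knockout, with an unadjusted p under 0.05 by limma for 2 on chow, Bhmt and Chka, and 1 on MCD, Bhmt. Over all 12466 genes these counts were 870 and 2026. Bhmt was higher in every Pctp-/- liver than in every WT liver on each diet. Its knockout difference was 0.54 on chow (limma adjusted p = 0.226) and 0.56 on MCD (limma adjusted p = 0.0849). Genotype groups did not overlap for 10.6% of all genes on chow and 26.6% on MCD.

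The SREBP2 programme, to which Stard4 belongs, was read from 20 other sterol-regulated genes. With MCD in WT mice 13 of the 20 (65%) were higher and 0 lower, with a median of 0.57. Of all genes 34.5% were higher and 22.5% lower. Among Pctp-/- mice 3 of the 20 were higher and 6 lower, with a median of -0.17, where 26% of all genes were higher and 24.4% lower. The cholesterol synthesis genes Hmgcs1 and Idi1 rose by 1.86 and 1.83 in WT mice (adjusted p = 2.65e-04 and 2.84e-04), where Stard4 had 0.02. In Pctp-/- mice their log2 fold changes were 0.46 and 0.63 and did not pass, Msmo1 rose by 0.81 and Sqle by 0.72, and Mvd and Sc5d fell by 0.76 and 0.57, where Stard4 rose by 0.48. The Sqle call was lost with no filter on low values and without Pctp-/- replicate 2 on chow or replicate 1 or 3 on MCD (adjusted p from 0.0715 to 0.134), and that of Mvd without Pctp-/- replicate 2 on MCD (0.0686). Sc5d was at -0.345, still past the threshold, without Pctp-/- replicate 1 on chow. For the difference of the diet effects, limma called 0 of the 20, with an unadjusted p under 0.05 for 13 and a median of -0.76, while the Stard4 value was 0.46, of the other sign. Over all 12466 genes 1884 had such a p, with a median of -0.096. On the knockout contrasts 0 of the 20 were called by limma (unadjusted p under 0.05 for 7 on chow and 8 on MCD), with medians of 0.38 on chow and -0.39 on MCD, and Stard4 had -0.35 and 0.10. Over all genes 870 on chow and 2026 on MCD had such a p, with medians of 0.006 and -0.093. Without WT replicate 1 on MCD, the count of the 20 called in WT mice was 8. Without Pctp-/- replicate 1 or 2 on MCD, and with no filter on low values, it was 5 in Pctp-/- mice.

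**Figure D4:**
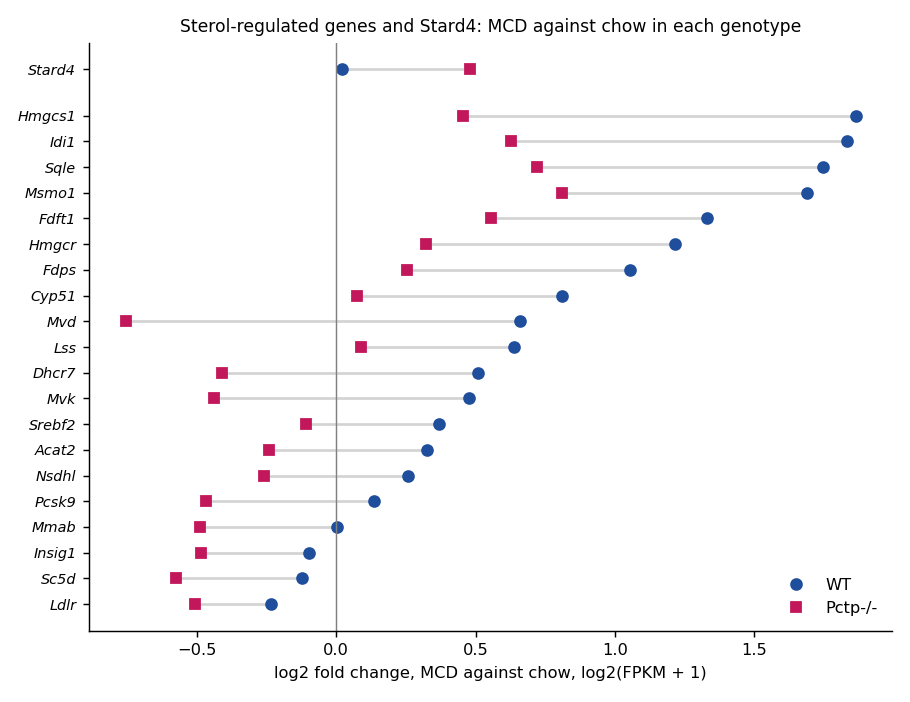
Log2 fold change of log2(FPKM + 1) for MCD against chow in WT (circles) and Pctp-/- mice (squares), for Stard4 (top row) and the 20 sterol-regulated genes ordered by their value in WT mice. In each of the 20 the square lies left of the circle, whereas for Stard4 it lies right of it (0.48 against 0.02).

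Markers of the cell types of liver were read beside these values. The summed FPKM of the hepatocyte list was 40030 to 44810 in WT and 43270 to 45460 in Pctp-/- mice on chow, and 53240 to 60020 in WT and 67590 to 73920 in Pctp-/- mice on MCD. It was higher on MCD in each genotype and higher in Pctp-/- than in WT mice on MCD, without overlap, and its part in the values above was not tested. Most of this sum was Alb, with means of 27790 FPKM in WT and 28260 in Pctp-/- mice on chow, and 43900 and 57220 on MCD. The direction of the sum is therefore that of Alb and not of the list, whose other called markers were lower on MCD. The marker counts below stand beside 34.5% of all genes called higher with MCD in WT and 26% in Pctp-/- mice. All 7 macrophage markers were tested, and with MCD 6 were higher in WT mice and 3 in Pctp-/- mice. Their summed FPKM was 60.4 to 98.3 in WT and 52.6 to 142 in Pctp-/- mice on chow, and 163.8 to 270.2 in WT and 138.4 to 145.6 in Pctp-/- mice on MCD, and none was at 0 in any liver. Of 8 stellate cell markers 4 and 3 were higher, with sums of 16.5 to 31.7, 20.3 to 26.2, 39.4 to 67.1 and 34.7 to 40.1 in the same order of groups. Of 8 endothelial markers 3 were higher in WT and 0 in Pctp-/- mice on MCD (sums 46.1 to 59.9, 48.5 to 75.0, 64.7 to 81.9 and 57.6 to 65.1). On MCD the stellate sums lay above those on chow without overlap in both genotypes, and the macrophage sums did so in WT mice but overlapped between diets in Pctp-/- mice. The same MCD livers were those with higher Stard5 and lower Stard3, Stard10 and Stard13 and, in WT mice, higher Pctp, and the part of these cell types in those values was not tested. The genotype groups overlapped in all 3 sums on chow. On MCD the stellate and the endothelial sums overlapped, and the macrophage sums did not, being higher in each WT liver. Of 7 hepatocyte markers, 4 were called with MCD in each genotype, 1 higher (Alb) and 3 lower, among them the regulator Hnf4a (-1.10 in WT and -0.87 in Pctp-/- mice). Of all genes 57% were called in WT and 50.3% in Pctp-/- mice. Of 6 cholangiocyte markers 4 were tested, and Spp1 was higher in WT mice (0.75) and Sox9 lower in Pctp-/- mice (-1.17) on MCD. Of 6 B and T cell markers 2 were tested, and limma called 0 with MCD in either genotype. Its unadjusted p was under 0.05 for 0 in WT and 1 in Pctp-/- mice, against 7679 and 7049 of all 12466 genes.

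The genes whose pattern over the 12 livers was most like that of each called gene were found by the root mean square difference of centred log2(FPKM + 1), over 12465 genes. Nearest to Stard3, with a standard deviation of 0.297, were Fzr1, an activator of the anaphase-promoting complex, at 0.0483, Gak at 0.063 and Pacsin3 at 0.067. Nearest to Stard10 (standard deviation 0.374) were Txndc15 at 0.0848, Mif4gd at 0.0856 and Cyhr1 at 0.0866. Nearest to Stard13 (standard deviation 0.281) were Tbc1d4, a Rab GTPase-activating protein, at 0.0909, Map3k4 at 0.094 and Gid4 at 0.0997. Stard7 (standard deviation 0.188) lay closest to Atp5a1, a subunit of ATP synthase, at 0.0603, then to the mitochondrial carrier Slc25a11 at 0.0607 and to March2 at 0.0727. Stard5 (standard deviation 0.331) lay closest to Mtch2 at 0.123, Lsm1 at 0.124 and Glyat at 0.125, and Stard4 (standard deviation 0.249) to Syt1 at 0.138, Inpp5b at 0.143 and Nat8f2 at 0.145. Pctp had no close neighbour. Its nearest, Psmc3ip, was at 0.486, C130046K22Rik at 0.573 and Gm4875 at 0.583, where Pctp itself had a standard deviation of 1.01. The livers of a diet also share their read quality, and these values are descriptions.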

How the data were processed

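Whole liver RNA of 12 male mice, 3 in each of 4 groups, was sequenced by a commercial provider. FPKM values for each gene in each library were deposited, with a table of read and mapping statistics, which was used for depth and to compare read quality between the diets. The labels name build mm10. The aligner, the counter and the annotation are not given in the sources used here. Symbols and positions come from GENCODE M21 (GRCm38), which held 34490 of the 35275 identifiers.

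Values were taken as log2(FPKM + 1). limma 3.58.1 in R 4.3.3 was run on the 12466 genes whose FPKM averaged 0.5 or more, on all 12 libraries with a coefficient for each group and a mean-variance trend. Benjamini-Hochberg adjusted p under 0.05 was called, as the study's rule has it, without a minimum fold change. The study's Wald test needs counts and was not run. Intervals are 95% intervals of limma. The test was checked on simulated data. An exact permutation test of 3 against 3 cannot go below p = 0.1. Between replicates, 0.0722 to 0.305% of the tested genes had exactly equal values, so no replicate was a copy of another. The p-values rest on a single spread per gene, pooled over the livers within all 4 groups and moderated by limma across genes. For Pctp the SE was 0.227 in each comparison of 2 groups. The SD of its log2(FPKM + 1) was 0.477 in WT and 0.106 in Pctp-/- mice on MCD.

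The members and lists were chosen with earlier results of these data known. Named in the text are all members, the other START-domain genes, the 2 called genes of each further list with the largest rise and fall for each diet contrast, every list gene called for the knockout, and the 3 genes most like each called member. Alternatives were the pseudocount, filters on low values, scaling, libraries in the fit, a replicate block, limma's trend and robust options, a minimum fold change and leaving out each library.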

Additional observations from a re-analysis of the deposited data

Results flagged for a closer look

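For Pctp, the libraries of the diets separated in opposite directions in the 2 genotypes, but in Pctp-/- mice this is the deleted gene. Its means there, 0.420 FPKM on chow and 0.259 on MCD, were both under the minimum mean of 0.5 FPKM for testing. Pctp passed that filter through the WT livers. Values this low in a deleted gene cannot show a direction of diet, and none is read from them. In WT mice the MCD mean was 2.72 times the chow mean and every MCD liver was above every chow liver. In Pctp-/- mice the MCD mean was 0.617 of the chow mean and every MCD liver was below every chow liver, the nearest values being 0.329 on MCD and 0.330 on chow. The rise in WT mice passed the test (adjusted p = 0.00152), and the difference in Pctp-/- mice did not (log2 fold change -0.17, interval -0.67 to 0.32, adjusted p = 0.552). The difference of the log2 fold changes was -1.26, with an unadjusted p of 0.00201 and an adjusted p of 0.132 by limma, so it did not pass over all genes. Its sign follows from the rise in WT mice and the deletion, and no difference in response to diet is read from it.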

How the results depend on the processing

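The log2 fold changes of the 8 genes in 5 contrasts gave 872 values under the alternatives. Of these 835 kept their direction and side of the threshold, 7 lost and 2 gained a call, and 28 changed sign, the last all for differences that had not been called. The cause of these changes was not tested. With median-of-ratios scaling the sign changed for Stard3 (0.0039, knockout on chow), Stard4 (-0.107, MCD in WT), Stard5 (0.0639, difference of the diet effects), Stard7 (0.0583) and Stard10 (0.0657), both for the knockout on MCD, and Acot13 (-0.0048, MCD in WT). With quantile normalization it changed for Stard4 (-0.0606, MCD in WT), Stard7 (0.0676) and Stard10 (0.0428) for the knockout on MCD, and, for the difference of the diet effects, Stard5 (0.0791), Stard7 (0.0173) and Stard13 (0.0131). Over the fits that left out 1 replicate, the knockout on chow ranged from -0.0608 to 0.0470 for Stard3 and from -0.0862 to 0.218 for Acot13. The knockout on MCD ranged from -0.133 to 0.0123 for Stard7, -0.132 to 0.0154 for Stard10 and -0.0767 to 0.0758 for Stard13. MCD in WT ranged from -0.0744 to 0.152 for Stard4 and -0.0653 to 0.239 for Acot13, and the difference of the diet effects from -0.194 to 0.1002 for Stard5 and -0.179 to 0.0040 for Stard13. With a minimum absolute log2 fold change of 0.5, 3 of the 8 genes and 1 of the other START-domain genes were called for MCD in WT mice. With no filter on low values, 2 other START-domain genes and 5 sterol-regulated genes were called for MCD in Pctp-/- mice. With quantile normalization, 1 phosphatidylcholine synthesis gene was called for the knockout on MCD. Without 1 replicate, calls of the other START-domain genes ranged from 1 to 3 in WT and 0 to 1 in Pctp-/- mice, and those of the sterol-regulated genes from 8 to 14 and 5 to 10. Replicate numbers are shared between groups but number different mice, and deviations of same-numbered libraries correlated at -0.0972 to 0.225 (8 of 18 pairs over 0.1), although 11 of 12 libraries had a higher mean correlation with their own number than with the others. With the number as a replicate block, 5 of the 8 genes were called for MCD in WT and 6 in Pctp-/- mice, Pctp had -1.07 for the knockout on chow (adjusted p = 0.13), and 2 sterol-regulated genes were called for the difference of the diet effects, where 59 of all genes were called in place of 12. For the knockout on chow the block gave 32 calls in place of 17 among all genes. Fitting only the groups compared gave 4 and 19 calls for the knockout on chow and MCD in place of 17 and 102.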
